A study of Mus musculus with 211 samples.

Results

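The S100 genes encode small calcium-binding proteins that fold around a pair of EF-hand loops and mostly act as dimers, binding partner proteins such as annexins when calcium rises. Several leave the cell and signal through receptors such as TLR4 and RAGE. S100A8 and S100A9 pair to form calprotectin, which fills much of the cytosol of neutrophils and withholds zinc and manganese from microbes. In the organ of Corti, S100A1 is used as a stain for supporting cells, Deiters' cells among them. The account below covers 8 of these genes, S100a8, S100a9, S100a6, S100a11, S100a1, S100a4, S100a10 and S100a13, which were chosen by their measured expression in these same cells and found in the count table by Ensembl identifier. The table lists 18 S100 entries among 48709 genes, and 15 of the 18 held at least 1 read.

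The cells came from adult CD1 mice carrying the Lfng-EGFP transgene, a bacterial artificial chromosome reporter in which the promoter of Lunatic fringe drives EGFP. Cochleae of several mice at postnatal day 60 (P60) or 120 (P120), of either sex, were pooled for each capture on a Fluidigm C1 chip, dissociated with trypsin, and sorted for bright GFP, scatter of single cells and exclusion of propidium iodide. All groups share the transgene and the sort, and no animal without the transgene was analysed here. The data set held 211 cells from 12 captures, 8 made at P60 and 4 at P120, and the capture was taken as the replicate because cells of a capture share their animals.

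The cells are labelled adult cochlear supporting cells, and their marker genes were checked first. A list of 15 supporting cell genes took 0.0408% of all reads, and 5 of 211 cells held 3 or more of those genes at 10 reads or more. A list of 12 neutrophil genes took 7.85% of reads, between 0.259% and 11.7% by capture, and 182 cells held 3 or more of them at 10 reads or more. For 10 general leukocyte genes the number was 172 cells, and for 9 endothelial and 5 glial genes it was 0. Reads on genes ranged from 41 to 5361476 a cell. Levels within cells, classes and correlations below use the 164 cells with 50000 reads or more. Every P60 capture named with a "c" (9c, 10c, 17c, 19c, 20c and 21c) was sequenced in one shared run, apart from the other 6 captures, so that run and age are partly confounded. P-values below take captures as replicates. In edgeR the spread of a gene is estimated with information from all genes, so its p-value does not measure that gene's own spread between captures alone. The part of other cell types in the values below was not tested, and in sums over cells, fewer cells of a type and less RNA per cell cannot be told apart.

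S100a8 and S100a9 dominated the family. S100a9 received 11086077 reads and was the gene with the most reads in the table, and S100a8 received 8158505 and ranked 4 by reads. Together they took 8.74% of all reads on genes and 96.8% of the reads of the 8 genes. Both were read in all 211 cells, including the shallowest cell, which held 41 reads. Across the 164 deeper cells the pair took between 0.00165% and 29.7% of a cell's reads, with a median of 8.30%, and 14 cells gave it over 20%.

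Below them the family fell in steps. S100a11, which binds annexin A1, had 439651 reads and at least 1 read in 96.2% of cells (exact 95% interval 92.7 to 98.3). S100a6, known as calcyclin and a binding partner of annexins and of Cacybp, had 136470 reads in 72% of cells (65.5 to 78). S100a1 was read in 36% of cells and S100a13, which helps FGF1 and interleukin 1 alpha leave the cell without a signal peptide, in 34.6%. S100a10, the partner subunit of annexin A2 that no longer binds calcium, was read in 10.9% (7.04 to 15.9). S100a4, a binder of non-muscle myosin heavy chain 9, had 121 reads in 3 cells, or 1.42% (0.294 to 4.10). These intervals cover counting error only, since reads without molecular identifiers are not independent molecules.

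Per kilobase of exon the order over all cells was S100a9 at 96467 CPM (reads per 1000000 reads on genes), S100a8 at 53398, S100a11 at 3908, S100a6 at 453, S100a1 at 224, S100a13 at 117, S100a10 at 30.1 and S100a4 at 0.941. S100a9 was above S100a8 in 10 of 12 captures. S100a8 was above S100a11, and S100a11 above S100a6, in all 12. Further down the order was less steady, with S100a6 above S100a1 in 9 captures and S100a1 above S100a13 in 9. The 8 genes are not the 8 most read of the family. S100b, the glial member, was left out of the group and had 8066 reads in 27 cells, above the 8021 reads of S100a10. Of the others with reads, S100a16 had 961 reads in 4 cells, and S100a3, S100a2, S100g, S100a7a and S100a14 had between 1 and 277. S100a5, S100z and S100a11-ps had none.

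**Figure D1:**
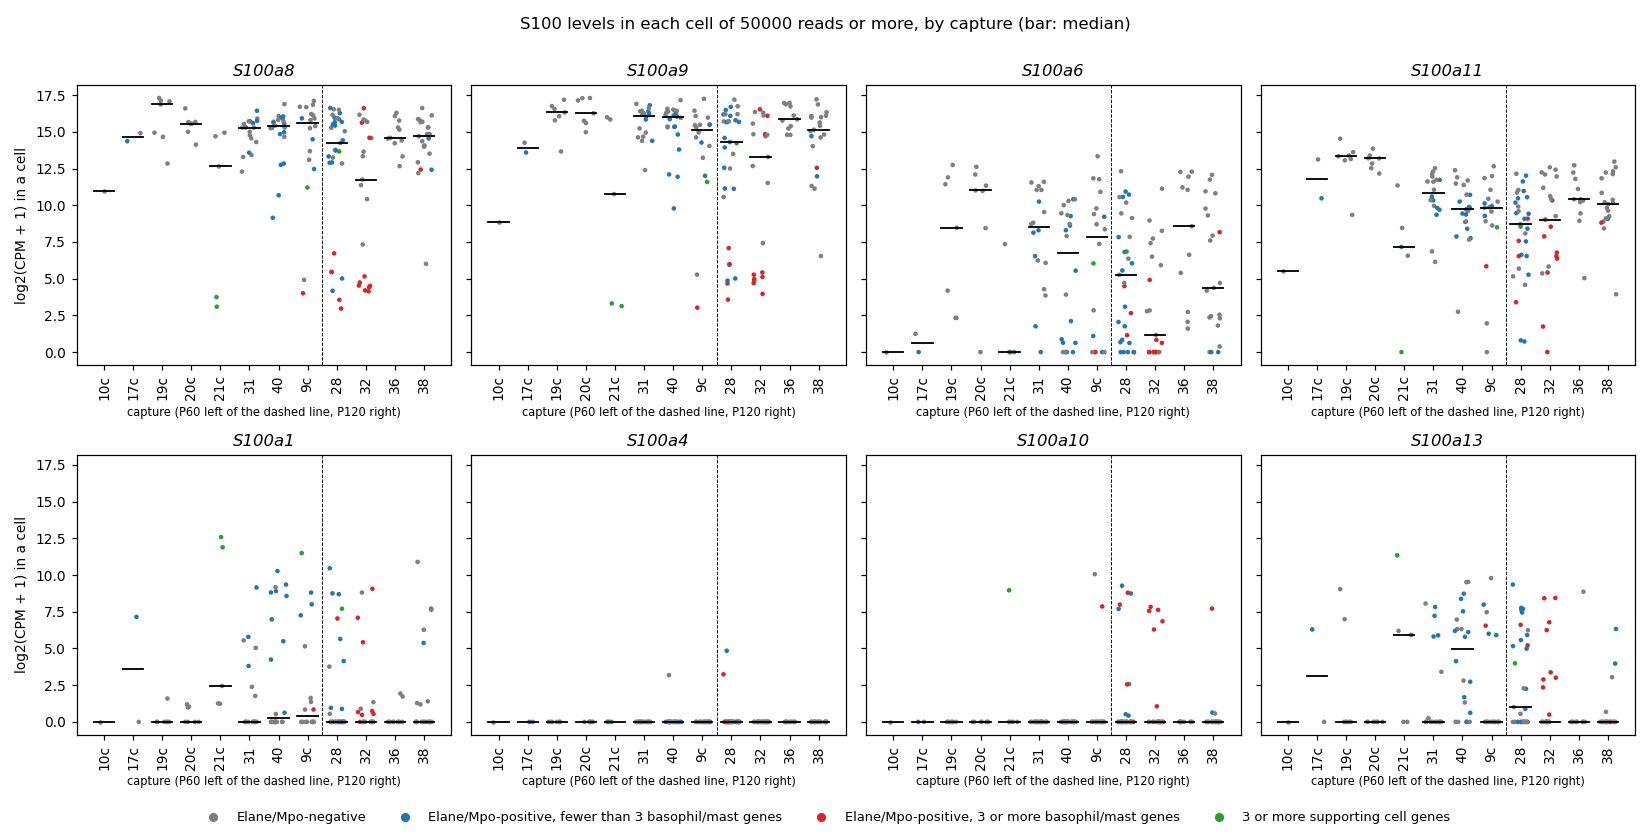
Level of each gene, as log2(CPM + 1), in each of the 164 cells with 50000 reads or more, by capture, with the median of each capture as a bar and cells coloured by marker class (a cell with 3 or more supporting cell genes is drawn as such whatever else it holds). S100a8 and S100a9 sit high in most cells of nearly every capture and drop to a separate low band in 20 cells, mostly of captures 28 and 32, while S100a1, S100a10 and S100a13 are at 0 in most cells and high in a few.

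Sequence overlap limits some of these counts. All 8 genes lie on chromosome 3 (GRCm38). Much of the exon sequence of S100a4 (chr3:90603771-90606045, plus strand), 302 of 584 bases or 51.7%, is also annotated on the same strand as exon of Gm42674, which had 0 reads in these cells, so the level of S100a4 is uncertain. S100a11 (chr3:93520488-93526287, plus strand) has 2 processed pseudogenes, Gm12854 and Gm7665, that match its transcript over 297 bases at 98.99% and 98.65% identity and carried 1732 and 1779 reads. They were also the 2 genes whose levels followed S100a11 most closely, with Spearman's rho of 0.84 and 0.87, which were 0.48 and 0.52 after thinning to 50000 reads, below the 0.57 of Trem1 and Tyrobp. The split of reads between them and S100a11 is uncertain.

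S100a8 and S100a9 moved together from cell to cell. Their Spearman's rho over the 164 cells was 0.89, it was 0.89 after each cell was thinned to 50000 reads, 0.87 over all 211 cells and 0.88 for ranks taken within captures. It was above 0 in each of the 9 captures with 6 or more such cells and ranged from 0.54 to 0.96. It was 0.97 among Elane/Mpo-positive cells and 0.83 among Elane/Mpo-negative cells (classes defined below). The cells share captures and sequencing lanes, so these are descriptions. The median ratio of S100a8 to S100a9 reads was 0.768 in a cell, with quartiles of 0.569 and 0.988, and 40 of 164 cells held more S100a8 than S100a9. The ratio moved with the capture, and among captures with 5 or more such cells its median ran from 0.446 in capture 36 to 1.35 in 9c. Its median was 1.18 in the 40 cells of the run that held only P60 captures and 0.708 in the 124 cells of the other run.

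The genes are neighbours that end toward each other, S100a8 on the plus strand (chr3:90668978-90670035) and S100a9 on the minus strand (chr3:90692632-90695721), with 22596 bases between them. The sequence just upstream of each is shown because the pair moved together. It was taken from RefSeq windows that run from 250 bases before a gene's start (GRCm38.p6), cut at the start annotated by GENCODE, and covers chr3:90668821-90668977 on the plus strand for S100a8 and chr3:90695722-90695971 on the minus strand for S100a9. Capitals mark matches on either strand to TTNNGNAA (a C/EBP-type motif) or GAGGAAG (a PU.1-type motif).
S100a8: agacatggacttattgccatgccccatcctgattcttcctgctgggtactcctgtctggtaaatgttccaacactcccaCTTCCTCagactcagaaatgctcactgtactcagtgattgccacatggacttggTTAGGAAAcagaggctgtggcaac
S100a9: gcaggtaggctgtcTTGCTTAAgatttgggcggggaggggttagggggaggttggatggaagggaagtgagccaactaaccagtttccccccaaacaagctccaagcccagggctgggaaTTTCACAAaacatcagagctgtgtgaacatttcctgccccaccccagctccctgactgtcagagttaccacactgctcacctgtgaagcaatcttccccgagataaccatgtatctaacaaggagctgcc
Each sequence held a match to the C/EBP-type motif, and S100a8 one to the PU.1-type motif. Of all 32851 RefSeq windows of 300 bases, 40.7% held the first motif and 13.6% the second, so such matches are common. Neither motif occurred in the windows of S100a6, S100a11, S100a1 or S100a13, and S100a10 had no window in the table. The window of S100a4, a gene with 121 reads in 3 cells, held 1 match to the PU.1-type motif and none to the C/EBP-type motif. TTCNNNGAA (STAT type) matched none of the 7 windows. A match describes the letters only.

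**Figure D2:**
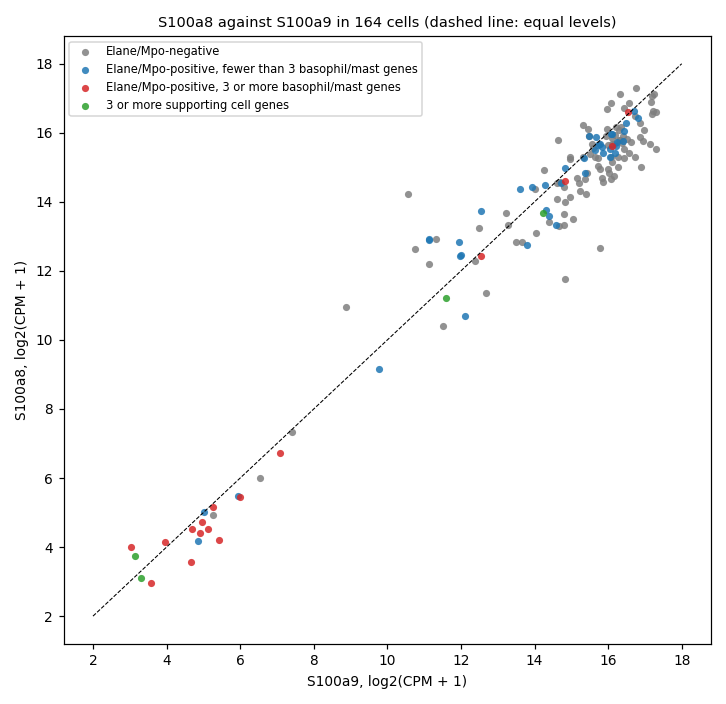
S100a8 against S100a9, both as log2(CPM + 1), in 164 cells coloured by marker class, with a dashed line of equal levels. The cells fall along the line in an upper group and a lower group of 20 cells below 200 CPM of S100a9, and 12 of those 20 held 3 or more basophil and mast cell genes.

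Although both genes were read in every cell, the levels fell into an upper and a lower range. In 20 of the 164 cells, or 12.2%, S100a9 lay under 200 CPM, with a median of 30.8, and the highest of them had 170. The next cell had 469 CPM. S100a8 in the same 20 cells ran from 6.82 to 160 CPM, with a median of 22, whereas the lowest S100a8 level among the other 144 cells was 565. Most of the 20 came from captures 28 (7 cells) and 32 (8 cells), and the others from 9c (2), 21c (2) and 38 (1). Of these cells, 12 held 3 or more of 6 basophil and mast cell genes (Mcpt8, Prss34, Cpa3, Fcer1a, Ms4a2 and Gata2) at 10 reads or more, 2 held 3 or more supporting cell genes, and 6 held neither. Without these 20 cells the rho of S100a8 with S100a9 was 0.84 over 144 cells.

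The other members split between the low and the upper cells in opposite ways. S100a10 was read in 15 of the 20 low cells (75%), with a median of 192 CPM, and in 4.17% of the other 144. S100a13 was read in 75% against 36.8%, and S100a1 in 60% against 38.9%, with a median of S100a1 of 0.521 CPM in the low cells and 0 in the others. None of the shares in this paragraph were taken at equal depth. S100a6 was read in 45% of the low cells and in 84% of the others, and the median of S100a11 was 86.5 CPM against 1217 CPM. The cut at 200 CPM was set after the values were seen, so no test was made.

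The 2 low cells with supporting cell genes held more of those genes than any other cell and both came from capture 21c at P60. One held 7 of the 15 genes at 10 reads or more (Lfng, Otog, Tectb, Slc1a3, Gjb2, Epcam and Tecta) and the other 9, and neither held a leukocyte gene at that level. Their S100a8 levels were 12.4 and 7.53 CPM, from 8 and 16 reads, and their S100a9 levels 7.76 and 8.94 CPM. A few reads of S100a8 and S100a9 were thus also present in cells without leukocyte genes, so that the share of cells with a read does not separate cell types for this pair. S100a6 was at 0 reads in both. S100a1 was at 6166 and 3802 CPM in these cells, the 2 highest levels of that gene in the data set. One of the 2 also had S100a13 at 2604 CPM, and the other had S100a10 at 498 CPM and S100b at 1785 CPM. The third highest level of S100a1, 2892 CPM, lay in a cell of capture 9c with Gjb2, Gjb6 and Cdh1, which also had S100a8 at 2368 CPM. The remaining 2 cells with 3 or more supporting cell genes, both from capture 28, held 9 and 10 leukocyte genes as well, with S100a8 at 13005 and 45343 CPM and S100a1 at 208 and 705 CPM. The second of them had 43998 reads and so is not among the 164 cells, and its S100a1 level rests on 31 reads. These 5 cells gave 41.4% of all S100a1 reads and 0.0775% of S100a8 reads.

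**Figure D3:**
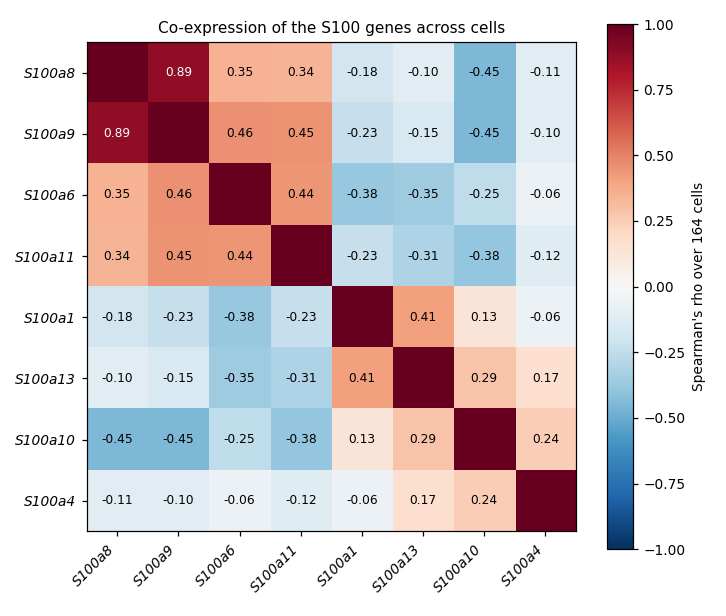
Spearman's rho between each pair of the 8 genes over 164 cells, on log2(CPM + 1). S100a8, S100a9, S100a6 and S100a11 are positively related, S100a13 is positively related to S100a1 (0.41) and S100a10 (0.29), S100a1 and S100a10 are near 0.13, and most values between those groups are negative.

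Across the 164 cells the family formed a pair of loose groups. S100a6 had a rho of 0.46 with S100a9, 0.35 with S100a8 and 0.44 with S100a11, and S100a11 had 0.45 with S100a9. Within captures, by ranks, these were 0.43, 0.30, 0.36 and 0.38. S100a1 and S100a13 had a rho of 0.41, and S100a13 and S100a10 0.29. Between the groups, S100a10 had -0.45 with S100a8, S100a6 had -0.38 with S100a1 and -0.35 with S100a13. Without the 20 low cells, the rho of S100a9 was 0.36 with S100a6 and 0.28 with S100a11. Depth also moved with some of these levels, with a rho to total reads of 0.42 for S100a13, 0.24 for S100a10, 0.19 for S100a1 and -0.12 for S100a6. Thinned to 50000 reads a cell, the rho was 0.46 for S100a6 with S100a9, 0.40 for S100a6 with S100a11 and 0.39 for S100a1 with S100a13, while S100a13 with S100a10 went to 0.22, S100a6 with S100a1 to -0.26 and S100a6 with S100a13 to -0.26. S100a1 with S100a10 had 0.13 before thinning and 0.0135 after it.

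S100a1 (chr3:90511034-90514392, minus strand) and S100a13 (chr3:90514435-90524581, plus strand) start back to back. The 42 bases between their annotated starts (chr3:90514393-90514434, plus strand, from the RefSeq window of S100a13) are shown because the genes share them.
Between S100a1 and S100a13: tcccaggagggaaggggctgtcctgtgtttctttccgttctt
Of the 164 cells, 43 held reads of both genes, 25 of S100a1 only, 25 of S100a13 only and 71 of neither. Their rho was 0.57 among Elane/Mpo-positive cells and 0.14 among Elane/Mpo-negative cells.

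The genes of most similar pattern were named by their rho over the 164 cells, among 3784 genes read in at least 25% of them. For S100a8 they were S100a9, Lyz2 (0.65), Lcn2 (0.58), Ngp (0.57) and Wfdc21 (0.55), which include lysozyme and granule proteins of neutrophils. For S100a9 they were S100a8, Lyz2 (0.67), Retnlg (0.58), Lcn2 (0.58) and Wfdc21 (0.54). S100a6 was closest to Retnlg (0.64), the gelatinase Mmp9 (0.62), the formyl peptide receptor Fpr1 (0.56), the collagenase Mmp8 (0.56) and Trem1 (0.52). After the pseudogenes, S100a11 was closest to Trem1 (0.59), Tyrobp (0.55) and the complement receptor C5ar1 (0.55). S100a13 was closest to genes and pseudogenes of ribosomal proteins such as Rpl35 (0.66), Rpl36a (0.64) and Rps18 (0.64), and S100a1 to Gm10039 (0.56), Gm7618 (0.53), Rpl36a (0.52), Rpl14 (0.51) and Atp5g1 (0.51). S100a10 was closest to Crip1 (0.63), Ptprs (0.57), Prkacb (0.56), Nop58 (0.54) and Mir703 (0.53). At equal depth several of these values dropped, to 0.24 for Mir703 and 0.40 for Prkacb with S100a10, 0.29 for Gm7618 with S100a1, and 0.52 for Rpl35 with S100a13. For S100a4, read in 3 of the cells, no rho passed 0.28.

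To see how the family stands against markers of granulocyte precursors, cells were called Elane/Mpo-positive when they held 10 reads or more of Elane (neutrophil elastase) or Mpo (myeloperoxidase), which are made early in the granulocyte lineage. Of the 164 cells, 58 were positive and the others negative. The classes were set from reads of these genes, not from the S100 genes. Positive cells had a median of 1824665 reads and 4510 genes, against 773127 reads and 1653 genes in negative cells, and still 2228 against 821 genes at 50000 reads each. Captures 28, 31, 32, 38, 40 and 9c held at least 3 cells of each class and entered the test, with the capture as a block. Scaled by edgeR's TMM factors, the median log2 fold change of all 11923 genes tested was 1.58, so values below are set against that shift. With total reads alone it was 2.43, and the genes called higher and lower were 59 and 12 in place of 19 and 56.

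S100a8, S100a9 and S100a11 were lower in the Elane/Mpo-positive cells. This was 3 of the 8 genes, and 0 were called higher, while across all genes tested 0.47% were called lower and 0.159% higher (adjusted p under 0.05). In positive cells S100a8 was at 26633 CPM in capture 28, 51393 in 31, 19112 in 32, 11143 in 38, 34854 in 40 and 19864 in 9c, with a median of 23248. In negative cells the same captures had 52779, 37732, 28690.1, 36815, 54115 and 64420 CPM, with a median of 45255. Capture 31 alone was higher in positive cells, and the ranges of the classes overlapped. The log2 fold change of S100a8 was -1.90 ± 0.20 (SE), with an edgeR adjusted p of 6.4e-06.

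S100a9 had a lowest, median and highest level of 11635, 25293 and 71051 CPM in positive cells, against 38054, 60357 and 85746 CPM in negative cells. It was lower in positive cells in 5 of 6 captures, with a log2 fold change of -2.12 ± 0.19 and an edgeR adjusted p of 2.52e-07. S100a11 was at 321, 723 and 1455 CPM against 1235, 2324 and 2909 CPM and lower in 6 of 6 captures. Its log2 fold change was -2.58 ± 0.52, with an edgeR adjusted p of 0.0171, and the call was lost without capture 40 (adjusted p = 0.0534). S100a6 was lower in 6 of 6 captures too, at 0.620, 191 and 342 CPM against 201, 693 and 1193 CPM, but its change of -3.47 ± 0.95 did not pass the edgeR test (adjusted p = 0.110). Of 11822 genes whose mean reached 1 CPM, 1.5% were lower and 10.5% higher in positive cells in all 6 captures.

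On plain CPM the differences were smaller. The mean log2 ratio over the 6 captures was -0.86 ± 0.81 (SD) for S100a8, -1.09 ± 0.72 for S100a9, -1.57 ± 0.89 for S100a11 and -2.71 ± 2.20 for S100a6. An exact two-sided sign permutation over the 6 captures, one of 8 such tests, gave unadjusted p = 0.0625 for S100a8 and S100a9 and 0.0312 for S100a11 and S100a6, and 0.0312 is the smallest p that 6 captures allow. With total reads as the scale, edgeR called S100a8 (log2 fold change -0.87, adjusted p = 0.030) and S100a9 (-1.09, 0.00113) and no longer S100a11 (adjusted p = 0.115). DESeq2, which called 20.6% of all genes higher and 5.46% lower, called S100a11 and S100a6 lower and S100a10 higher. It called neither S100a8 (DESeq2 adjusted p = 0.104) nor S100a9 (DESeq2 adjusted p = 0.0609). With 1 read of Elane or Mpo as the cut for positive cells, edgeR called 0 of the 7 S100 genes tested. Of all 8164 genes in that fit, 4 were called higher and 0 lower, and the median log2 fold change was 4.12.

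**Figure D4:**
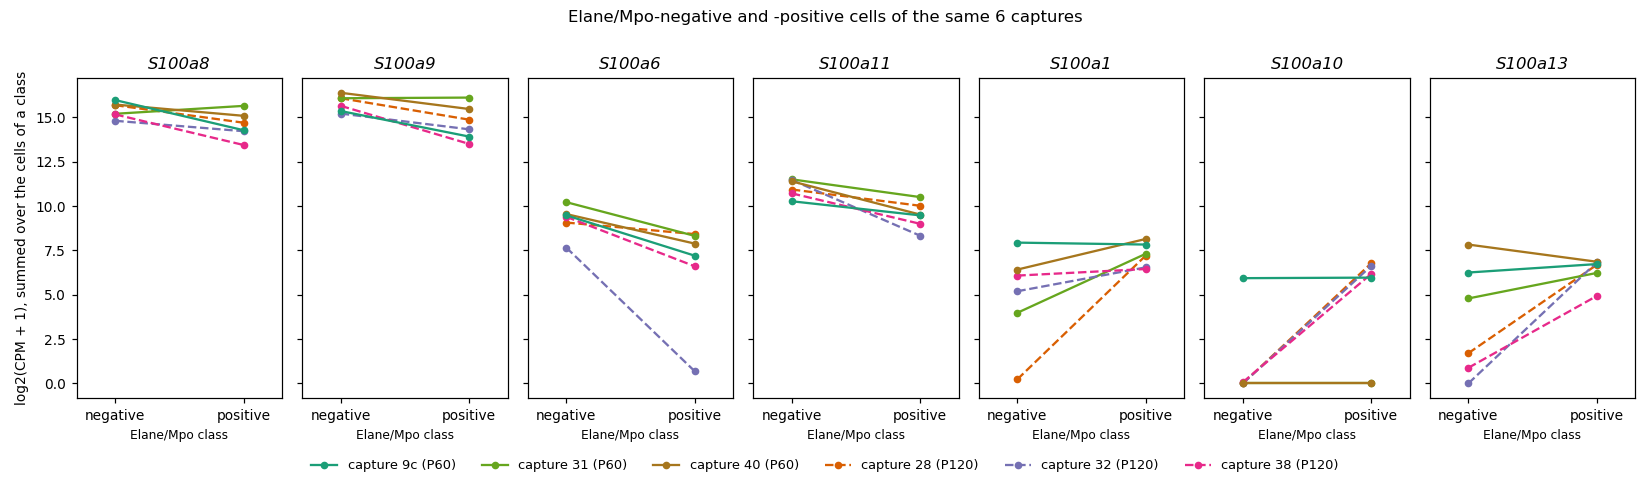
Level of 7 of the genes, as log2(CPM + 1), summed over the Elane/Mpo-negative and the Elane/Mpo-positive cells of each of 6 captures, with a line joining the classes of a capture (solid for P60, dashed for P120). S100a11 and S100a6 are lower in positive cells in all 6 captures, S100a8 and S100a9 in 5, and S100a1 and S100a13 are higher in positive cells in 5.

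S100a10, S100a13 and S100a1 were not called by edgeR. Against the median log2 fold change of 1.58 over all genes, S100a1 lay below, S100a13 above by less than its SE, and S100a10 above. They were read in a larger share of positive than of negative cells, which at 50000 reads a cell also held for 76% of the 17124 genes read. S100a10 was read in 31% of positive cells (exact 95% interval 19.5 to 44.5) and 2.83% of negative cells (0.588 to 8.05). It was at 0 CPM in both classes in captures 31 and 40, at 108.2, 97.6 and 71.1 CPM in the positive cells of captures 28, 32 and 38 against 0, 0 and 0.0496 CPM in the negative cells, and about level in 9c (61.5 against 60.2 CPM). Its edgeR adjusted p was 0.276. S100a13 was read in 75.9% of positive and 22.6% of negative cells, with a log2 fold change of 2.26 ± 2.20 and an edgeR adjusted p of 0.595, and S100a1 in 60.3% and 31.1%, with 1.0 ± 1.57 and 0.765. Thinned to 50000 reads, the shares were 60.3% against 17% for S100a13, 43.1% against 15.1% for S100a1, 22.4% against 1.89% for S100a10 and 37.9% against 72.6% for S100a6. Averaging log2(CPM + 1) over cells instead of summing reads, limma called 5.64% of 26033 genes higher and 0.127% lower, among them S100a13 (adjusted p = 0.0296) and S100a1 (adjusted p = 0.0226) higher and S100a6 lower (adjusted p = 0.00916), and did not call S100a8, S100a9 or S100a11. S100a4 had reads in 2 positive cells and 1 negative cell.

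The positive cells were themselves mixed. Of the 58, 17 held 3 or more basophil and mast cell genes at 10 reads or more, 16 of them from P120 captures and 10 from capture 32, whose positive cells were all of this kind. No negative cell did. In these 17 cells the median was 25.7 CPM for S100a8, 37.6 CPM for S100a9, 108.4 CPM for S100a11 and 0 for S100a6, and 70.6% (44 to 89.7) held a read of S100a10. In the other 41 positive cells the medians were 32128, 41530 and 706 CPM for S100a8, S100a9 and S100a11, 2.38 CPM for S100a6, and 14.6% (5.57 to 29.2) held S100a10. Negative cells had medians of 39064, 54536, 1631 and 241 CPM. S100a13 did not follow that split, with reads in 76.5% and 75.6% of the positive cells with and without those genes. With the 17 cells left out, 4 captures remained. There edgeR still called S100a8 (log2 fold change -1.59, adjusted p = 1.09e-09) and S100a9 (-1.75, 1.64e-13) lower and not S100a11 (adjusted p = 0.195), while the change of S100a10 was 0.01. The median log2 fold change of all genes in that fit was 1.21, and these values are set against that shift. Of the 10559 genes tested there, 7 were called higher and 43 lower. Captures 31 and 40 held none of the 17 cells. S100a8 in positive against negative cells was at 51393 against 37732 CPM in 31 and 34854 against 54115 CPM in 40. No sign permutation and no fit with total reads as the scale was run on these 4 captures.

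**Figure D5:**
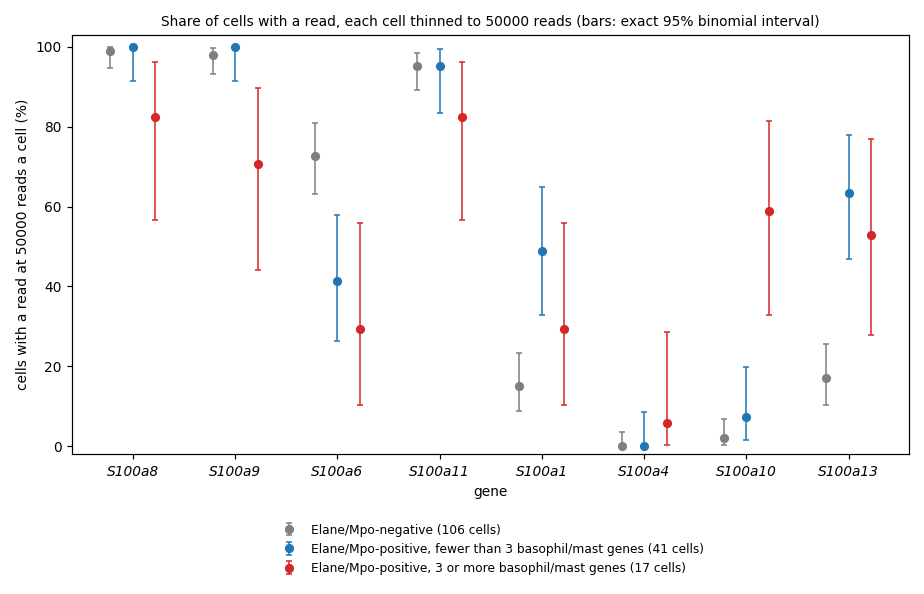
Share of cells with at least 1 read of each gene after each cell was thinned to 50000 reads, in Elane/Mpo-negative cells, 41 positive cells with fewer than 3 basophil and mast cell genes and 17 positive cells with 3 or more, with exact 95% binomial intervals that cover counting error only. S100a10 stands at 58.8% in the 17 cells against 7.32% and 1.89%, S100a6 at 72.6% in negative cells against 41.5% and 29.4%, and S100a13 at 17% in negative cells against 63.4% and 52.9%.

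To ask whether the family differed with age, the reads of all cells of a capture were added up. None of the 7 members tested was called between P120 and P60, at a background of 0.0599% of 8346 genes called higher and 0.0599% called lower at P120, and 0 of the 7 had an unadjusted edgeR p under 0.05. DESeq2 and limma called 0 members as well. S100a8 had a lowest, median and highest level of 3858, 43326 and 103057 CPM over the 8 P60 captures, and 22210, 30980.1, 33497 and 34374 CPM in P120 captures 32, 38, 28 and 36, all inside the P60 range. Its means were 39765 ± 30934 (SD, n = 8) and 30265 ± 5559 (n = 4), and its log2 fold change at P120 was -0.18 ± 1.15 (SE, edgeR adjusted p = 1). S100a9 had 13955, 49479 and 92917 CPM at P60 and 26219, 40215, 42438 and 72321 CPM at P120, and a log2 fold change of 0.16 ± 1.12. Capture 10c was lowest for S100a8 and S100a11 and held 1 cell of 50000 reads or more, while 19c was highest for S100a8 and S100a11 and 20c for S100a9 and S100a6.

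S100a6 ran from 0.301 CPM in 17c to 2916 CPM in 20c at P60 and from 65.4 to 1914 CPM at P120, and S100a11 from 143 to 10992 and from 1137 to 2687 CPM. Their log2 fold changes were 0.53 ± 1.32 and -0.76 ± 1.31. That of S100a11 was -0.05 without 19c and -1.84 without 36. S100a1 had a median of 89.5 CPM over the P60 captures, with 2580 CPM in 21c, the capture of the 2 cells rich in supporting cell genes, and 74.1, 71, 108.7 and 0.329 CPM in P120 captures 32, 38, 28 and 36. Its log2 fold change of -2.81 ± 1.76 became -0.34 without 21c and 0.20 without the 5 cells that held 3 or more supporting cell genes. S100a13 had medians of 73.2 and 50.3 CPM, and a log2 fold change of -1.26 ± 1.89, which was -0.57 without 21c, -0.45 without those 5 cells and -3.54 in Elane/Mpo-negative cells alone.

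S100a10 was at 0 reads in 6 of 8 P60 captures, at 60.6 CPM in 9c and at 227 CPM in 21c, and had 79.8, 66.1, 16.1 and 0 CPM in P120 captures 28, 32, 38 and 36. It was read in 3 P60 cells (2.94%, exact 95% interval 0.611 to 8.36) and in 20 P120 cells (18.3%, 11.6 to 26.9), intervals that take no account of captures. Its log2 fold change was -0.09 ± 2.09, and 2.35 without capture 21c. S100a4 was below the expression filter in this comparison.

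GFP intensity of each cell, a score between 31 and 1000 that the authors normalized from chip images, stood in weak relation to the family. Its rho over the 164 cells was 0.17 with S100a8, 0.21 with S100a9, 0.27 with S100a6, 0.12 with S100a11, -0.04 with S100a1, -0.19 with S100a10 and -0.28 with S100a13. Among Elane/Mpo-negative cells the values were -0.09, -0.05, 0.03 and -0.13 for S100a8, S100a9, S100a6 and S100a11, 0.00 for S100a13, 0.21 for S100a1 and 0.17 for S100a10. Among the 58 positive cells they were 0.45, 0.45, 0.39 and 0.28 for the first 4 genes. The 58 were mixed, and the 17 with 3 or more basophil and mast cell genes had a lower median GFP score than the other 41. The medians of S100a8, S100a9, S100a6 and S100a11 were also lower in those 17 cells. The part of this mixture in the values for positive cells was not tested. The relation of GFP itself to total reads was -0.20.

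For a test, cells of 9 captures were split at the capture's median score into brighter and dimmer cells. None of the 7 members tested was called by edgeR, and 0% of the 11669 genes tested were called in either direction. At an unadjusted p under 0.05 there were 762 genes, 2 of them members, and DESeq2 called 559 genes but 0 members. S100a11 was higher in the brighter cells in 9 of 9 captures, with a lowest, median and highest level of 1055, 2411 and 15658 CPM against 578, 1544 and 7912 CPM in the dimmer cells, although the ranges overlapped. Of 11482 genes whose mean reached 1 CPM, 0.0523% were higher and 0.122% lower in the brighter cells in all 9. The mean log2 ratio of S100a11 was 0.78 ± 0.77 (SD), with p = 0.00391 by the exact sign permutation, one of 8 unadjusted tests and the smallest p that 9 captures allow, and the edgeR log2 fold change was 1.21 ± 0.69 (SE, adjusted p = 0.750). In captures 9c, 20c and 31 the groups differed little, as with 1055 against 1035 CPM in 9c.

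S100a13 was lower in the brighter cells in 8 of 9 captures and at 0 in both groups of 20c, with a median of 1.55 against 108.4 CPM. Its exact permutation p was 0.00781 and its edgeR log2 fold change -2.91 ± 2.07 (adjusted p = 0.799). S100a8 and S100a9 were higher in the brighter cells in 7 of 9 captures, with log2 fold changes of 0.87 ± 0.36 and 0.86 ± 0.33 (edgeR adjusted p = 0.736 for both), where the median of all genes was -0.93. With total reads as the scale they were 0.41 and 0.40. Elane/Mpo-positive cells made up 24% of the brighter and 48.1% of the dimmer cells, and their part was not tested directly. With the split made among negative cells alone, the log2 fold changes were 0.31 for S100a11, -2.21 for S100a13, 0.30 for S100a8 and 0.20 for S100a9, none called by edgeR.

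Binding partners and receptors of S100 proteins were taken as a list of 24 genes, all with reads. Between Elane/Mpo classes, 20 were tested, with 0 called higher and 2 lower in positive cells. Of all genes tested, 0.159% were called higher and 0.47% lower. The median log2 fold change of the 20 was -1.05, against 1.58 for all genes. The 2 called lower were annexins, Anxa2, which forms a complex with S100a10, at -2.96 ± 0.55 (edgeR adjusted p = 0.00988), and Anxa1, which S100a11 binds, at -1.98 ± 0.36 (adjusted p = 0.00908). Both calls are given on the TMM scale only. With total reads as the scale, 12 genes in place of 56 were called lower, and whether the annexins were among them is not given here. Over all positive and all negative cells, not only those of the captures tested, Anxa2 was at 616 and 1783 CPM and Anxa1 at 5824 and 7772 CPM. Cacybp, the S100a6 binding protein, was read in 60.3% of positive and 6.6% of negative cells, shares not taken at equal depth. Its log2 fold change was 9.02, with an edgeR adjusted p of 0.157. Myh9 was at 729 and 1773 CPM over all positive and all negative cells, and the cytochrome b subunit genes showed edgeR adjusted p of 0.135 for Cybb and 0.158 for Cyba. The receptor genes Tlr4 and Ager were read in 24.1% and 8.62% of positive cells and in 12.3% and 6.6% of negative cells, but their pooled levels were lower in positive cells, at 16 against 89.8 CPM for Tlr4 and 12.3 against 40.6 CPM for Ager. Neither was called by edgeR, with adjusted p of 0.960 and 0.882. Between ages, 18 partner genes were tested and 0 called, and between brighter and dimmer cells 20 and 0. Of 8 transcription factors of the myeloid lineage, among them Spi1 and the C/EBP genes, all were tested in each comparison and 0 were called. Of these, 2 had an unadjusted edgeR p under 0.05 between Elane/Mpo classes, Cebpb (log2 fold change -3.10) and Stat3 (-3.47), both lower in positive cells. Of all 11923 genes tested there, 17.3% had such a p.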

How the data were processed

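Per the study's methods, the authors aligned reads with STAR to GRCm38 (vM11) and its gene annotation with EGFP added, and removed endothelial cells and outliers before deposit, so shares of cell types are those of the deposited table. The deposited counts are raw reads per gene and cell, without molecular identifiers. The GFP intensity is a score normalized by the authors, and its scale is not given in the sources used here. Doublets were gated out by scatter during the sort, and no doublet caller was run.

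The S100 genes, gene lists and tests were chosen with earlier results of these data known. The binding partner and transcription factor lists, the marker lists and, for each S100 gene, the 5 genes of highest Spearman's rho are the genes named. Of 48709 genes, 48349 identifiers matched a symbol. The 92 spike-ins stayed out of totals. CPM is reads per 1000000 reads on genes. Cells with 50000 reads or more entered levels and correlations. Intervals are Clopper-Pearson, 95%. Counts summed per capture, or per capture and class with the capture as a block, were tested across all genes with edgeR 4.0.16 (quasi-likelihood, TMM, Benjamini-Hochberg, threshold 0.05). Samples are paired because both classes come from the same captures. The age comparison used all cells and no block. DESeq2 1.42.0 and limma 3.58.1, with log2(CPM + 1) computed from the deposited counts, were alternatives. The edgeR step was tested on simulated data. Exact sign permutations and correlations used scipy 1.17.1, and near copies were found with blastn 2.17.0. Cells sequenced more deeply give more precise shares, so shares were also computed after thinning to 50000 reads. Depth ranged from 41 to 5361476 reads a cell, with a median of 736455, and 33 cells had under 10000. One gene of the binding partner list is not reported here.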

Additional observations from a re-analysis of the deposited data

Results flagged for a closer look

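In 48 groups of 4 to 10 captures, the highest or lowest capture was compared with the others by Dixon's criterion at 95%, which chance alone meets in about 1 group in 20, and 13 values stood apart. Capture 19c had the highest S100a8 level among both the brighter and the dimmer cells by GFP intensity, 96633 CPM in the brighter cells, where the others lay between 28763 and 52928, and 109604 CPM in the dimmer cells, where the others lay between 19424 and 43161. In Elane/Mpo-positive cells S100a6 was at 0.620 CPM in capture 32 against 96.7 to 342 CPM elsewhere, and S100a13 at 29.5 CPM in capture 38 against 74 to 115 CPM. Among P120 captures S100a1 was at 0.329 CPM in capture 36 against 71 to 108.7 CPM.

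S100a10 stood at 60.2 CPM in the Elane/Mpo-negative cells and at 64.7 CPM in the brighter cells of capture 9c, where no other capture passed 0.0496 and 0.309 CPM. Its reads in the 14 negative cells of that capture lay in 1 cell. S100a4 met the criterion in 6 groups because its reads lay in 3 cells of captures 28 and 40 and every other capture was at 0. The values were 0.447 CPM in capture 40 among P60 captures, 2.33 CPM in capture 28 among P120 captures, 3.16 CPM in the positive cells of capture 28, 0.856 CPM in the negative cells of capture 40, 0.844 CPM in the brighter cells of capture 40 and 4.17 CPM in the dimmer cells of capture 28.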

How the results depend on the processing

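Between Elane/Mpo classes the number of S100 genes called was 3 and stayed between 2 and 3 when 1 capture was left out. It was 0 when a single read of Elane or Mpo made a cell positive. There S100a8 turned to 0.0118, against a median log2 fold change of 4.12 over all genes tested. Without the replicate block, which pairs the classes of a capture, 144 genes and again 3 S100 genes were called, S100a8, S100a9 and S100a11 remained called, and S100a13 turned to -0.42. S100a4 turned to 0.00822 with limma and 0.0887 with total reads as the scale. The number of genes called was 75, and ran from 4 (1 read) to 3105 (DESeq2), with 134 without a filter on low counts, 137 thinned, 1502 with limma and 30 with a block of capture and run. Leaving out a capture gave 45 without 32 and 48 without 38. S100a11 was also not called at 100 CPM (edgeR adjusted p = 0.0807) or with a block of capture and run (adjusted p = 0.391).

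Between ages 10 genes were called, 0 with limma, 1 with RLE factors, thinned or in Elane/Mpo-negative cells, 2 within one run, 5 with total reads, 22 without the filter and 1 to 16 without 1 capture. No S100 gene was called under any alternative run, and several directions turned. S100a8 was 0.00909 in Elane/Mpo-negative cells. S100a9 was -0.54 with RLE factors or DESeq2, -0.055 without the filter, -0.0807 within one run, -0.72 with limma and -0.13 with total reads. S100a6 was -0.0434 with RLE factors, -0.0427 with DESeq2 and -0.12 thinned or with total reads. S100a11 was 0.17 within one run, and S100a1 0.20 without the 5 cells rich in supporting cell genes. S100a10 was 0.27 without the filter, 13.10 within one run, 0.58 thinned, 0.53 with limma, 0.0273 with total reads and 2.5 without those 5 cells. Leaving out 1 capture gave -0.79 to 0.37 for S100a8, -0.86 to 0.46 for S100a9, -1.49 to 1.2 for S100a6, -1.84 to -0.05 for S100a11, -1.48 to -0.57 for S100a13 and -0.53 to 2.35 for S100a10. These reversals are of log2 fold changes that did not pass the test, and their cause was not tested.

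Between brighter and dimmer cells 0 genes were called by edgeR and 559 by DESeq2, and S100a1 turned to 2.03 in Elane/Mpo-negative cells. Without the replicate block 0 genes were called there as well. Settings added after the data were seen were total reads as the scale, a block of capture and run, leaving out cells by their supporting or basophil genes, and the exact sign permutation over captures. Reads per cell limit the shares: at 10 reads or more S100a6 was present in 45.5%, S100a11 in 74.4% and S100a13 in 25.1% of cells.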
